A study of Mus musculus with 6 samples.

Results

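The genes flanking Wfs1 on mouse chromosome 5 were followed in whole retinas that carried or lacked a working Wfs1. They were taken from the deposited count table by position, as the genes starting between 32000000 and 42000000 on chromosome 5 of mm10 with 10 or more counts in at least 3 of the 6 retinas, Wfs1 itself being left out. This gave 103 genes of the 55376 in the table. The interval held 205 genes in all, of which 101 were under the count rule. Of the 103 genes, 81 are annotated as protein coding, and 78 lie on the lower-coordinate side of Wfs1 and 25 on the higher-coordinate side.

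RNA of whole retinas was sequenced from 3 wild-type mice (WT) and 3 Wfs1-knockout mice (Wfs1-KO) at postnatal day 240, with each library from a different mouse and no treatment named for either genotype. The mutant allele is a germline deletion of the last exon of Wfs1, so every cell of the animal carries it. The sample labels name a C57x129 background for both genotypes, while the study's methods name C57BL/6J, and which of them held in these mice was not tested.

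Wfs1 encodes wolframin, a membrane protein of the endoplasmic reticulum whose loss causes Wolfram syndrome with optic atrophy. A targeted allele is made in embryonic stem cells, often of 129 origin, and the DNA on either side of it stays linked to it through backcrossing. Neighbouring genes in such a mouse can therefore differ from the control by the alleles they carry, and a selection cassette or a deletion can also alter transcription nearby. No allele of a flanking gene was measured in these libraries.

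The libraries held 17916885 to 101334381 counts, and the 103 genes took between 0.429% and 0.450% of them. A count of 0 allows up to 3 counts, which corresponds to between 0.0296 and 0.167 CPM, that is counts scaled to a common library size,, for counting error only. The Wfs1-KO replicate 2 library stood apart, with a mean correlation to the others of 0.918 across genes against 0.962 to 0.971 for the other libraries. All 8 rod markers were detected in the retinas, and their summed level was 50205 CPM in that library against 65148 to 73391 CPM in the others. The same library was the highest in 9 of 13 lists of cell type markers and the lowest in 2, the rod list and the amacrine and horizontal cell list. Its blood markers summed to 481 CPM against 12.3 to 41.3, its microglia and macrophage markers to 294 against 31.4 to 45.7, its pigment epithelium markers to 396 against 56.0 to 168, its reactive glia markers to 747 against 221 to 345 and its lens markers to 8.79 against 1.91 to 4.59 CPM. Cone, ganglion cell, Müller glia and myelin markers were also highest there, while bipolar and endothelial markers were within the range of the other retinas. Values without this retina are given beside the counts and beside the genes it moved, and the part of these cell types in the results was not tested. In whole tissue, fewer cells of a type and less RNA per cell cannot be told apart.

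The targeted gene was checked first. Wfs1 (chromosome 5, 36966104 to 36989205, minus strand) had 64.9, 61.4 and 69.9 CPM in WT and 9.63, 0.900 and 11.5 CPM in Wfs1-KO retinas, with TMM factors in the scaling. The log2 fold change of Wfs1, Wfs1-KO over WT, was -3.15 (SE 0.77, adjusted p = 0.979 by the quasi-likelihood test of edgeR, adjusted after Benjamini and Hochberg). Without Wfs1-KO replicate 2 it was -2.64 (SE 0.16, adjusted p = 2.84e-05 by edgeR).

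The segment is rich in genes that the retina expresses. Per length of exon, the highest levels in WT retinas were those of Mrfap1, a small protein that binds a chromatin factor of the MORF4 family, with 169 ± 14.6 RPKM (SD, n = 3). Ywhah, the eta isoform of the 14-3-3 adaptor proteins, followed with 132 ± 7.17 RPKM, and Rab28, a small GTPase of the photoreceptor cilium whose loss causes cone-rod dystrophy, with 101 ± 6.22 RPKM. Add1, the alpha subunit of the membrane skeleton protein adducin, stood at 96.3 ± 3.14 RPKM and Lyar, a nucleolar zinc finger protein, at 76.3 ± 6.90 RPKM. Rab28 and Add1 lay within their spread of each other. The median of the 81 coding genes was 5.39 RPKM in WT, and 52 of them exceeded 10 CPM. The 22 genes of other annotation types had a median of 0.455 RPKM, and 0 of them exceeded 10 CPM. Of the 103 genes, 57 overlap the body of another annotated gene, and since the strand setting of the counting is not given in the sources used here, reads from overlapping genes cannot be told apart.

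Several of the genes lie head to head, with their starts facing away from each other, in 9 pairs with starts at most 700 bases apart or overlapping by at most 300 bases. The closest of them is Zbtb49, a zinc finger transcription factor on the minus strand, and Lyar on the plus strand, whose annotated starts lie 13 bases apart. Their shared start region is shown because its genes are among those discussed below, as is that of Tada2b, a subunit of SAGA-type histone acetyltransferase complexes, which lies head to head with the ciliary gene Ccdc96. Both are RefSeq windows of 300 bases on GRCm38.p6, from 250 before to 50 after the gene's start, written 5′ to 3′ on the strand of the named gene. In the Lyar window (chr5:38220232-38220531, plus strand) capitals mark the 12 bases between both annotated starts. These are GENCODE starts, and that of Lyar differs from the start that sets its window. In the Tada2b window (chr5:36484236-36484535, minus strand) capitals mark the 198 bases that the window of Ccdc96 also covers.
Lyar: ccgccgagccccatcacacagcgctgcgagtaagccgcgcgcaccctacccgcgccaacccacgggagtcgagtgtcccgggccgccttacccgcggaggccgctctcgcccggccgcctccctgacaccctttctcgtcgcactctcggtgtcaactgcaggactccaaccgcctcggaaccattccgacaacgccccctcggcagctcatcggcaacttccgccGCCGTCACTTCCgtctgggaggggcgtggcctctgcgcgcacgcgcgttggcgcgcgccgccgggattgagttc
Tada2b: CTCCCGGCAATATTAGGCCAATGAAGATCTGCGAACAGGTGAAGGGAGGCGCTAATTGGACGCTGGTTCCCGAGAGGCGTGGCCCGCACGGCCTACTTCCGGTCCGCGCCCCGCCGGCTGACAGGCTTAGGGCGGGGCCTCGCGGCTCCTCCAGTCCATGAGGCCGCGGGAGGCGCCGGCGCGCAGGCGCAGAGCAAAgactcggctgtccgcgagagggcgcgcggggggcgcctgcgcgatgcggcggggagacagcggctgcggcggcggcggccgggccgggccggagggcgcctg
Each of these windows held 43 CG dinucleotides, a number reached by 2.61% of the 32851 mouse promoter windows in the same collection, where the median was 7. A window was found by symbol for 76 of the 103 genes.

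**Figure D1:**
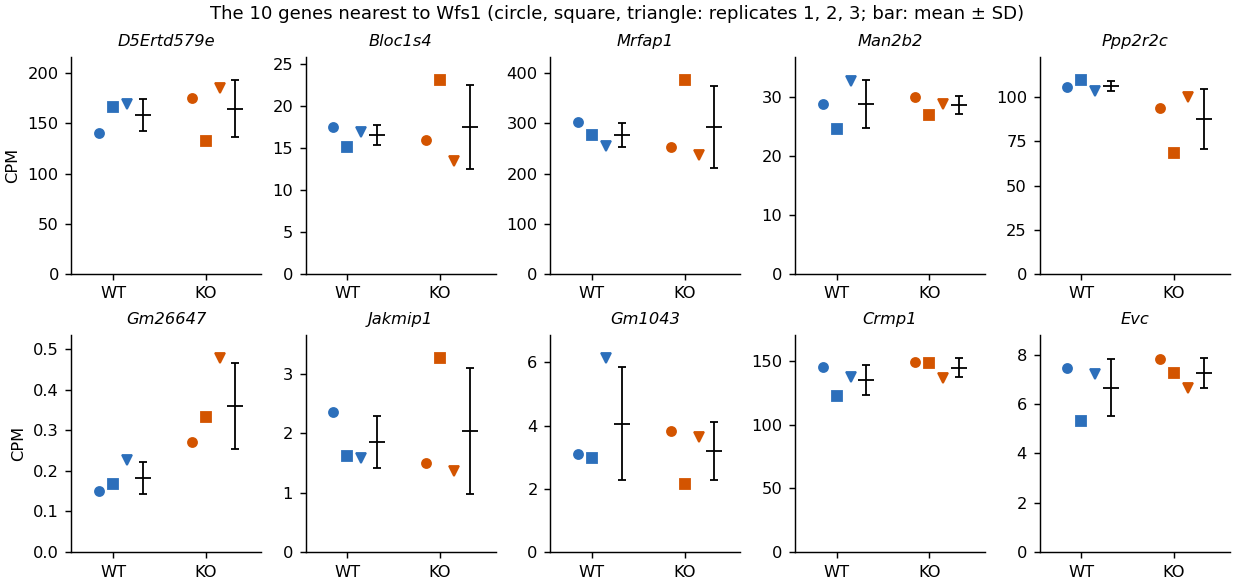
Levels of the 5 nearest genes on the lower-coordinate side of Wfs1 (upper row) and on the higher-coordinate side (lower row), in CPM on the vertical axis, by genotype; points are single retinas and bars are the mean ± SD of 3 retinas. The genotypes overlap in 8 of the 10 genes, the exceptions being Ppp2r2c, lower in all mutant retinas, and Gm26647, which is near the floor of detection. Over all genes tested, 8.96% did not overlap. Without mutant replicate 2, D5Ertd579e (higher), Mrfap1 and Jakmip1 (both lower) do not overlap either. In that setting 11.4% of all genes were higher without overlap and 11.0% lower.

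The question put to the genes next to Wfs1 was whether their levels followed the genotype. The nearest is Ppp2r2c, a regulatory subunit of protein phosphatase PP2A, whose body ends 11.0 kb from that of Wfs1. It had 106, 110 and 104 CPM in WT and 94.1, 68.4 and 100 CPM in Wfs1-KO retinas. Every mutant retina lay below every WT retina, mutant replicate 2 by the widest margin, and mutant replicate 3 only just. The log2 fold change was -0.28 (SE 0.19, 95% interval -0.73 to 0.17, adjusted p = 0.979 by edgeR), and without mutant replicate 2 it was -0.14 (interval -0.41 to 0.14).

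Farther along the same side, Man2b2, a lysosomal alpha-mannosidase 135 kb away, had 28.9, 24.7 and 32.9 CPM in WT and 30.0, 27.0 and 28.9 CPM in Wfs1-KO retinas. Mrfap1, 169 kb away, had 302, 277 and 254 CPM in WT and 254, 386 and 238 CPM in Wfs1-KO retinas. Bloc1s4, a subunit of the BLOC-1 complex that sorts cargo to lysosome-related organelles, 217 kb away, had 17.4, 15.1 and 16.9 CPM in WT and 16.0, 23.0 and 13.4 CPM in Wfs1-KO retinas. In both Mrfap1 and Bloc1s4 the highest retina of all 6 was mutant replicate 2, and the other mutant retinas lay at or below the lower end of the WT values except for replicate 1 in Bloc1s4, which lay among them. Their log2 fold changes were 0.07 and 0.08, and became -0.18 and -0.17 without that retina. The uncharacterized coding gene D5Ertd579e, 270 kb away, had 140, 166 and 169 CPM in WT and 176, 132 and 186 CPM in Wfs1-KO retinas. Mutant replicates 1 and 3 were above every WT retina and replicate 2 below them all, and the log2 fold change of 0.05 (SE 0.19) became 0.18 (SE 0.13) without replicate 2. For Man2b2 it was -0.01 (SE 0.18), and 0.03 (SE 0.16) without that retina.

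On the other side the nearest gene is Gm26647, an antisense RNA 49.0 kb away, with 0.151, 0.168 and 0.227 CPM in WT and 0.272, 0.332 and 0.477 CPM in Wfs1-KO retinas. The mutant retinas were all above the WT retinas, at 14.2 counts per retina on average. The log2 fold change was 1.01 with a 95% interval from -0.21 to 2.24 (adjusted p = 0.979 by edgeR), and 1.06 (interval -0.37 to 2.49) without mutant replicate 2. Jakmip1, a microtubule-binding partner of Janus kinases 61.7 kb away, had 2.36, 1.62 and 1.59 CPM in WT and 1.504, 3.27 and 1.36 CPM in Wfs1-KO retinas. Here too mutant replicate 2 was the highest and the other mutant retinas the lowest, so that its log2 fold change of 0.13 (SE 0.43) became -0.39 (SE 0.31) without that retina. Jakmip1 and the predicted gene Gm1043, 96.2 kb away, overlap each other, and Gm1043 had a log2 fold change of -0.32 (SE 0.39), which became -0.08 (SE 0.32) without mutant replicate 2.

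Crmp1, a collapsin response mediator protein of growing axons 253 kb away, had 145, 123 and 137 CPM in WT and 150, 148 and 136 CPM in Wfs1-KO retinas. Evc, a protein at the base of the primary cilium that relays Hedgehog signals, 299.9 kb away, had 7.45, 5.32 and 7.21 CPM in WT and 7.83, 7.27 and 6.63 CPM in Wfs1-KO retinas. The genotypes overlapped in both, with log2 fold changes of 0.10 (SE 0.16) for Crmp1 and 0.12 (SE 0.23) for Evc, or 0.08 and 0.12 without mutant replicate 2. The plot of the nearest genes shows these values together.

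Across the whole segment, 100 of the 103 genes could be tested. None had an adjusted p under 0.05 (edgeR with Benjamini-Hochberg adjustment over all genes, smallest adjusted p = 0.979), against 0.0108% of the 18547 genes tested. Wfs1 itself, at a log2 fold change of -3.15, did not pass that threshold in this fit either (adjusted p = 0.979 by edgeR). At an unadjusted p under 0.05, 1 gene was higher in Wfs1-KO, against 2.24% of all genes, and 3 were lower, against 0.566%. Without Wfs1-KO replicate 2 the adjusted count was again 0 of 101 genes, against 0.125% of 19178 genes, with a smallest adjusted p of 0.612. In that fit 0 genes were higher at an unadjusted p under 0.05, against 2.8% of all genes, and 5 were lower, against 2.39%. DESeq2 also gave 0 adjusted calls among these genes, against 0.282% of all genes with an adjusted p on all retinas and 0.49% without replicate 2. At an unadjusted p under 0.05 DESeq2 gave 1 higher and 3 lower, against 3.16% and 0.863% of all genes, and without that retina 0 higher and 5 lower, against 2.53% and 2.41%. The smallest adjusted p of any of these genes under any setting was 0.162, for Gm42528 with DESeq2.

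**Figure D2:**
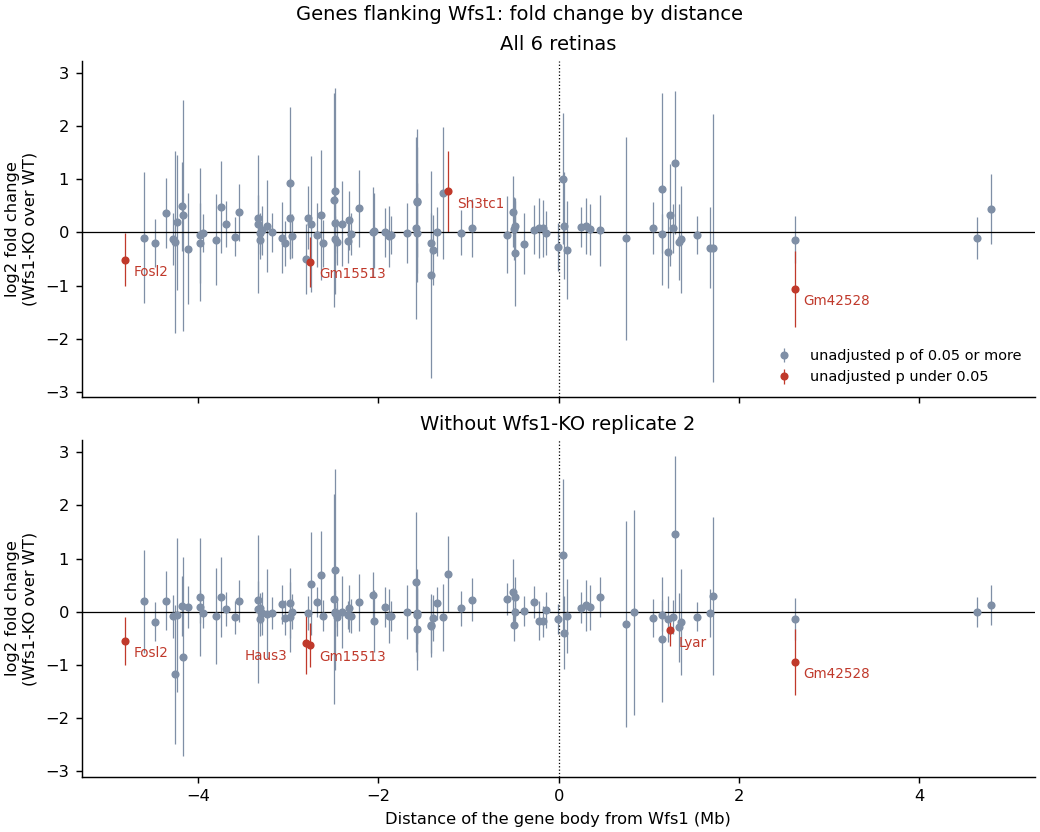
Log2 fold change (Wfs1-KO over WT, vertical axis) of each tested gene against the distance of its body from Wfs1 in Mb (horizontal axis, dotted line at Wfs1), for all 6 retinas (upper panel) and without Wfs1-KO replicate 2 (lower panel); bars are 95% intervals from edgeR and red points have an unadjusted p under 0.05. Most points lie near 0 on both sides of Wfs1. The red points are spread over the segment, with 0 of them within 1 Mb of Wfs1. Wide bars belong to low counts and, in the upper panel, also to better counted genes such as Gm1673. Gm1673 had 786 counts per retina on average and an interval of -0.50 to 2.36, which is -0.75 to 0.56 without Wfs1-KO replicate 2.

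The 3 genes lower at an unadjusted p under 0.05 in both fits were Gm42528, Gm15513 and Fosl2. Gm42528 (chromosome 5, 39606927 to 39610344, minus strand) is a transcript of the provisional TEC class, 2618 kb from Wfs1 and next to the heparan sulfate sulfotransferase gene Hs3st1. It had 2.26, 2.46 and 2.84 CPM in WT and 1.37, 0.995 and 1.23 CPM in Wfs1-KO retinas. The genotypes did not overlap, and each mutant retina was well below the lowest WT retina. For Gm42528 the log2 fold change was -1.06 (SE 0.30, 95% interval -1.78 to -0.35, adjusted p = 0.979 by edgeR), and -0.94 (SE 0.28, adjusted p = 0.612) without mutant replicate 2. Hs3st1, beside it on the same strand, had a log2 fold change of -0.13 (SE 0.19) in the fit of all retinas.

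Gm15513 (34211810 to 34213802, minus strand) is a sense-intronic transcript inside Zfyve28, which encodes an endosomal protein with a FYVE domain. Both lie on the minus strand, so reads of unspliced Zfyve28 RNA cannot be told apart from those of Gm15513 under any strand setting. Gm15513 had 8.93, 10.4 and 8.51 CPM in WT and 6.22, 6.91 and 5.93 CPM in Wfs1-KO retinas, without overlap of the genotypes. The log2 fold change was -0.55 (SE 0.20, adjusted p = 0.979 by edgeR), and -0.62 (SE 0.19, adjusted p = 0.631) without mutant replicate 2. The host gene Zfyve28 had 95.7, 89.4 and 97.2 CPM in WT and 112, 58.1 and 103 CPM in Wfs1-KO retinas. In the host gene mutant replicates 1 and 3 were above every WT retina and replicate 2 was below them all, giving a log2 fold change of -0.05 (SE 0.26), and 0.19 (SE 0.13) without replicate 2.

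Fosl2 (32135801 to 32157842, plus strand), a Fos-family subunit of the AP-1 transcription factor, had 8.28, 9.52 and 11.1 CPM in WT and 5.89, 7.08 and 7.27 CPM in Wfs1-KO retinas. The genotypes did not overlap. For Fosl2 the log2 fold change was -0.51 (SE 0.21, adjusted p = 0.979 by edgeR), and -0.55 (SE 0.20, adjusted p = 0.803) without mutant replicate 2. It is also the gene of the segment farthest from Wfs1, at 4808 kb.

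The single gene higher at an unadjusted p under 0.05 on all retinas was Sh3tc1 (35697180 to 35739987, minus strand), a protein with SH3 and tetratricopeptide repeats. It had 1.16, 1.07 and 1.02 CPM in WT and 1.45, 1.97 and 2.18 CPM in Wfs1-KO retinas, all mutant retinas being above all WT retinas. The log2 fold change was 0.77 (SE 0.32, adjusted p = 0.979 by edgeR), and 0.71 (SE 0.33, unadjusted p = 0.0518 by edgeR) without mutant replicate 2.

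Haus3 and Lyar were lower at an unadjusted p under 0.05 with edgeR without mutant replicate 2 but not on all retinas, where Haus3 reached an unadjusted p of 0.0153 by limma-voom with sample quality weights. Haus3, a subunit of the augmin complex that nucleates spindle microtubules, had 4.43, 7.67 and 6.64 CPM in WT and 4.30, 4.97 and 3.93 CPM in Wfs1-KO retinas, and WT replicate 1 lay within the mutant values. For Haus3 the log2 fold change was -0.50 (SE 0.28), and -0.60 (SE 0.26) without mutant replicate 2. Lyar had 141, 126 and 118 CPM in WT and 99.1, 281 and 103 CPM in Wfs1-KO retinas. Mutant replicate 2 was higher than every other retina, and mutant replicates 1 and 3 were below every WT retina. For Lyar the log2 fold change was 0.33 (SE 0.41) on all retinas and -0.35 (SE 0.14, adjusted p = 0.821 by edgeR) without replicate 2.

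**Figure D3:**
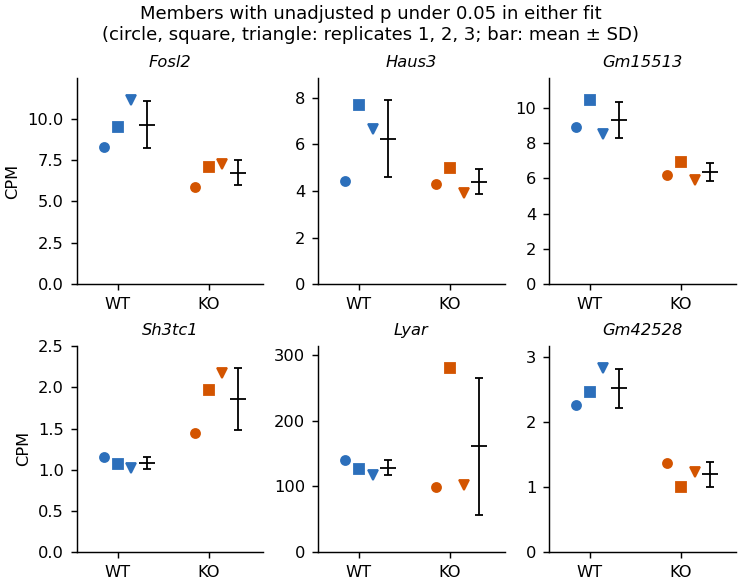
Levels in CPM (vertical axis) of the 6 genes whose unadjusted p was under 0.05 on all retinas or without Wfs1-KO replicate 2, by genotype; points are single retinas and bars are the mean ± SD of 3 retinas. Fosl2, Gm15513 and Gm42528 are lower and Sh3tc1 is higher in every mutant retina, while mutant replicate 2 of Lyar, at 281 CPM, lies far above the other 5 retinas.

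The count of genes whose genotypes did not overlap was 5 higher in Wfs1-KO of 100 tested, against 5.01% of all genes, and 7 lower, against 3.94%, so that 12 in all stood against 8.96%. Without Wfs1-KO replicate 2, where fewer retinas make non-overlap easier, 12 of 101 were higher, against 11.4% of all genes, and 15 were lower, against 11.0%. Beside those described, the higher genes were Gm10461, 2210406O10Rik and Otop1, and the lower genes were Slbp, Add1 and Plk-ps1. Otop1, a proton channel, had the highest log2 fold change of the segment, 1.31 (SE 0.57, 95% interval -0.03 to 2.66, and 1.47 without mutant replicate 2), at 14.3 counts per retina on average. Slbp, which binds the stem-loop of histone mRNAs, had 18.5, 19.5 and 19.2 CPM in WT and 17.6, 17.2 and 17.3 CPM in Wfs1-KO retinas. Its groups did not overlap although its log2 fold change was only -0.13 (SE 0.16), the same as without mutant replicate 2.

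For much of the segment the data set a bound on the size of a difference. The 95% interval of the log2 fold change lay wholly between -1 and 1 in 59 of 100 genes, against 52.3% of all genes, and in 45 of the 53 genes with at least 500 counts per retina on average. Without Wfs1-KO replicate 2 this held in 75 of 101 genes, against 69.3% of all genes, and in all 53 of the better counted ones. The fitted log2 fold change was smaller than 0.5 in size in 85 of 100 genes, or in 87 of 101 without that retina. For this count and for the better counted genes the share over all genes was not worked out.

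The median log2 fold change was 0.003 over the 100 genes, 0.017 over 1139 other tested genes of chromosome 5 and 0.023 over all genes tested. The median size of the change, regardless of direction, was 0.16 in the segment, 0.21 in the rest of the chromosome and 0.21 over all genes. Without Wfs1-KO replicate 2 these sizes were 0.13, 0.16 and 0.16. An unadjusted p under 0.05 was found for 2.55% of the other genes of chromosome 5, and 0 passed the adjusted threshold (edgeR), against 4 and 0 of the 100 genes of the segment, and without that retina the shares were 6.41% of the others and 4.95% of the segment.

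Ordered by distance, the 20 tested genes within 1 Mb of Wfs1 showed a median log2 fold change of 0.07 with a range of -0.39 to 1.01, and with edgeR none reached an unadjusted p of 0.05 in either fit. That median was 0.0019 without Wfs1-KO replicate 1 and 0.13 without WT replicate 1. The 39 genes at 1 to 2.5 Mb had a median of 0.001. Of these, 1 was higher at an unadjusted p under 0.05 by edgeR, against 2.24% of all genes. The 41 genes beyond 2.5 Mb had a median of -0.04, with 3 lower, against 0.566% of all genes. Without mutant replicate 2 the medians of these classes were 0.03, -0.06 and -0.02. In that fit 0, 1 and 4 genes were lower, respectively, against 2.39% of all genes. The median size of the change, regardless of direction, was 0.10, 0.17 and 0.19 in these classes on all retinas, smallest within 1 Mb. Without mutant replicate 2 it was 0.18, 0.11 and 0.13, largest within 1 Mb. The genes with the smallest p were not those closest to Wfs1.

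For the 17 tested genes of growth factor and G protein signalling the median log2 fold change was -0.01, or -0.04 without mutant replicate 2, and 0 reached an unadjusted p of 0.05 in either fit. Among receptors, the alpha-2C adrenergic receptor gene Adra2c had 15.3, 8.64 and 12.03 CPM in WT and 12.1, 11.8 and 11.9 CPM in Wfs1-KO retinas, a log2 fold change of -0.01 (SE 0.24). The genotypes overlapped and WT spread more widely than Wfs1-KO. The D5 dopamine receptor gene Drd5 had a log2 fold change of -0.17 (SE 0.31), or -0.29 without mutant replicate 2, and Fgfr3, a fibroblast growth factor receptor, 0.12 (SE 0.37), or -0.04, both at low levels of 0.684 and 0.203 RPKM in WT. Among transducers, Ywhah had 247, 222 and 231 CPM in WT and 226, 237 and 235 CPM in Wfs1-KO retinas, with a log2 fold change of -0.004 and a 95% interval from -0.36 to 0.35, and -0.02 without mutant replicate 2.

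Of the 14 genes for transcription, chromatin and DNA repair, 13 were tested, and their median was -0.13, or -0.03 for 14 genes without mutant replicate 2. Fosl2 was lower at an unadjusted p under 0.05, and without that retina Lyar was too. The corepressor gene Ctbp1 had 240, 185 and 215 CPM in WT and 230, 271 and 213 CPM in Wfs1-KO retinas, and Nsd2, a methyltransferase of lysine 36 of histone H3, had 66.3, 98.6 and 86.3 CPM and 90.8, 49.1 and 94.7 CPM. Both overlapped between genotypes, with mutant replicate 2 the highest retina for Ctbp1 and the lowest for Nsd2. Their log2 fold changes were 0.16 and -0.10, and became 0.05 and 0.14 without it. Hmx1, a homeobox gene of eye and ear development, had 38.7, 17.8 and 27.2 CPM in WT and 29.9, 68.8 and 25.2 CPM in Wfs1-KO retinas. Its log2 fold change of 0.56 (SE 0.44) became -0.02 (SE 0.26) without replicate 2.

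The 11 genes of cytoskeleton and axon had a median of 0.04, or -0.03 without mutant replicate 2, with Haus3 lower at an unadjusted p under 0.05 in the latter fit. Add1 had 490, 465 and 462 CPM in WT and 459, 350 and 451 CPM in Wfs1-KO retinas. All mutant retinas of Add1 were below the WT retinas, replicates 1 and 3 by little, and its log2 fold change of -0.17 (SE 0.18) was -0.06 (SE 0.12) without replicate 2. The 4 genes of the primary cilium had a median of 0.09, or 0.10 without that retina, and 0 with an unadjusted p under 0.05, though the median was -0.04 without WT replicate 2 and -0.0013 without Wfs1-KO replicate 1. Rab28 had 174, 185 and 164 CPM in WT and 167, 140 and 179 CPM in Wfs1-KO retinas, with a log2 fold change of -0.10 (95% interval -0.50 to 0.30), or -0.01 without replicate 2. Evc2, the partner of Evc, had a log2 fold change of 0.06 (SE 0.21).

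The 15 genes of membrane traffic, endoplasmic reticulum and lysosome, a list that takes in wolframin's own compartment, had a median of -0.01, or 0.06 without mutant replicate 2. The list also holds the proton channel gene Otop1, whose log2 fold change of 1.31 was its highest. Sh3tc1 was the single gene of the list with an unadjusted p under 0.05. Htt, which encodes the scaffold protein huntingtin, had 98.4, 131 and 171 CPM in WT and 158, 71.5 and 173 CPM in Wfs1-KO retinas. The WT retinas of Htt spread widely, mutant replicate 2 was below them all, and the log2 fold change of 0.01 (SE 0.36) was 0.31 (SE 0.20) without it. Sorcs2, a sorting receptor of neurons, had 60.6, 60.6 and 71.2 CPM in WT and 78.8, 34.3 and 73.3 CPM in Wfs1-KO retinas. Mutant replicates 1 and 3 of Sorcs2 were above every WT retina and replicate 2 was below them all, and its log2 fold change of -0.04 (SE 0.31) became 0.24 (SE 0.14) without replicate 2.

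The 9 genes of mitochondria and metabolism had a median of -0.07, or -0.03 without mutant replicate 2, with 0 at an unadjusted p under 0.05. Letm1, an ion exchanger of the inner mitochondrial membrane, had 97.7, 84.5 and 81.9 CPM in WT and 85.1, 92.1 and 87.8 CPM in Wfs1-KO retinas, a log2 fold change of 0.005 (SE 0.16), or -0.03 without mutant replicate 2. Grpel1, a cochaperone of mitochondrial protein import, had 61.6, 55.3 and 49.0 CPM in WT and 46.3, 80.1 and 47.8 CPM in Wfs1-KO retinas. Its log2 fold change of 0.07 (SE 0.25) became -0.24 (SE 0.14) without replicate 2. The 2 genes of RNA processing, Nop14 and Trmt44, had log2 fold changes of -0.02 and -0.33, or -0.08 and -0.11 without mutant replicate 2. The other 9 coding genes are in none of these lists.

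Some genes could be followed only in part. Gm42849, Gm42507 and Msx1, a homeobox gene of craniofacial development, were not tested on all retinas because of low counts. Msx1 had 12, 4 and 6 counts in WT and 22, 72 and 6 counts in Wfs1-KO retinas. Gm42507 had 13, 8 and 2 counts in WT and 40, 114 and 5 counts in Wfs1-KO retinas, and Gm42849 had 30, 4 and 0 counts in WT and 18, 44 and 6 counts in Wfs1-KO retinas. In each the highest library was Wfs1-KO replicate 2. Plk-ps1, a processed pseudogene, had 2.38, 2.04 and 2.44 CPM in WT and 2.03, 0.0947 and 1.79 CPM in Wfs1-KO retinas. Plk-ps1 had a log2 fold change of -0.79 (SE 0.83), and of -0.25 (SE 0.27) without mutant replicate 2.

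Wfs1-KO replicate 2 was the highest of the 6 retinas in 32 of 100 tested genes and the lowest in 36, against 38.4% and 36.8% of all genes. Its deviation, the log2 of CPM (+0.1) minus the mean of the other 5 retinas, went with the length of exon. The median deviation was 0.40 in 23 genes under 2 kb and -0.37 in 22 genes over 5 kb. The short Gm1673 (0.556 kb) had 15.3, 6.81 and 9.31 CPM in WT and 10.9, 40.2 and 8.83 CPM in Wfs1-KO retinas. The long Prr14l (9.96 kb) had 25.3, 38.3 and 35.9 CPM in WT and 34.0, 10.2 and 36.3 CPM in Wfs1-KO retinas. An exception was the long Bod1l (10.5 kb), which maintains stressed replication forks, with 63.6, 93.6 and 93.4 CPM in WT and 89.3, 158 and 93.7 CPM in Wfs1-KO retinas.

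Over the 76 genes with at least 100 counts per retina on average, Spearman's rho between deviation and exon length was -0.47 in Wfs1-KO replicate 2, 0.25 in replicate 1 and 0.49 in replicate 3. In WT it was -0.52, 0.03 and 0.18 in replicates 1, 2 and 3, each taken against the other retinas without Wfs1-KO replicate 2. The genes of a retina share its library, so these are descriptions across genes. The size of the deviation was what set mutant replicate 2 apart, with a median of 0.41 and 8 genes over 1, against medians of 0.10 to 0.17 and 0 genes over 1 in each other retina. Over all 18547 genes its rho was -0.40, so that the trend was not particular to the segment.

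**Figure D4:**
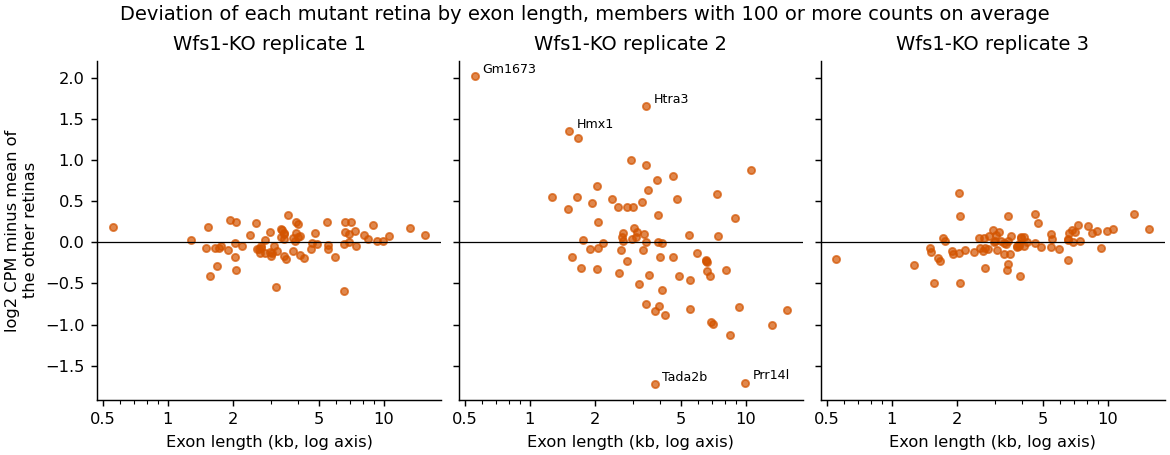
Deviation of each Wfs1-KO retina from the mean of the other retinas (log2 CPM, vertical axis) against exon length in kb (horizontal log axis), for the 76 genes with at least 100 counts on average; mutant replicate 2 is left out of the means. Points of replicates 1 and 3 stay within 1 of the line at 0, while those of replicate 2 tend to lie above 0 in short genes and below 0 in long ones, with exceptions such as Bod1l.

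The partners of head-to-head pairs differed in some cases and not in others in the deviation of that retina. Of the 9 pairs, 4 had partners whose deviations differed by under 0.5, the closest being Fam53a and Gm9903 with 0.29 and 0.28, and Zfyve28 and Cfap99 were both low, with -0.77 and -0.97. In 4 pairs the deviations differed by over 1. Among these pairs, Plk-ps1 and E130018O15Rik, the partner of Hmx1, had only 4 counts each in mutant replicate 2, so their deviations rest on few counts. For Zbtb49 and Lyar, whose start region is printed above, the deviation of mutant replicate 2 was -0.89 for Zbtb49 (exons of 4.25 kb) and 1.27 for Lyar (exons of 1.68 kb). Zbtb49 had 15.3, 13.6 and 20.4 CPM in WT and 14.0, 8.41 and 15.7 CPM in Wfs1-KO retinas. Its log2 fold change was -0.37 (SE 0.29) beside 0.33 for Lyar on all retinas, and -0.14 (SE 0.19) beside -0.35 without that retina. For Tada2b and Ccdc96, with exons of 3.79 and 3.58 kb, the deviations were -1.72 and -0.40. Tada2b had 29.9, 32.4 and 30.8 CPM in WT and 31.8, 9.28 and 29.9 CPM in Wfs1-KO retinas, so that 5 retinas lay close together and mutant replicate 2 far below them. Without it, the log2 fold change of Tada2b went from -0.39 (SE 0.42) to -0.01 (SE 0.14). Over the 9 pairs the partners' log2 fold changes differed by at most 0.70 on all retinas and at most 0.61 without that retina, and the difference was wider without it in 5 of them.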

How the data were processed

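RNA-seq of 6 retinas, 3 per genotype, was compared. Per the labels and the methods, reads were trimmed, aligned to mm10 by STAR and assigned to exons by featureCounts, and what the authors deposited are the resulting counts per gene, not normalized. The submitters' processing notes give Trimmomatic 0.39, STAR 2.5.3a and featureCounts 1.6.4, while the methods name other versions. Of 8 library columns, 6 were used, by genotype letter (C read as control, W as Wfs1) and replicate number, and the 2 columns matching no listed sample were not used.

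From the deposited counts, edgeR 4.0.16 (R 4.3.3) was run on the whole table with TMM factors, its filter on low counts and genotype as the only term, and p-values were adjusted over all genes tested. Checks used DESeq2 1.42.0 and limma 3.58.1, other scalings and filters, and the omission of each retina. The fit without Wfs1-KO replicate 2 with DESeq2 and the medians of lists and distance classes under every setting were added after seeing the data. The edgeR test was tried on simulated counts with the same dispersion for every gene and no outlying library. These settings differ from those of the retinas, so the trial does not show what the test could detect here. RPKM used the exon lengths of the deposited table. The methods give 3 different mice per genotype, so p-values measure the spread between mice, preparation of the libraries included.

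The genes, the 7 lists of roles and the 13 lists of markers were chosen with earlier results of these data known. Genes were named by rule: an adjusted p under 0.05, the 12 smallest p in either fit and the extremes of fold change among genes with at least 50 counts, the 5 nearest on each side of Wfs1 and the 5 highest in RPKM. Of these, Uvssa, Grk4, Htra3 and Stk32b are given only here. Their log2 fold changes by edgeR on all retinas were 0.38, 0.46, 0.74 and 0.04. Without Wfs1-KO replicate 2 they were 0.21, 0.18, -0.11 and 0.28. Those named for a role, for non-overlap, for the deviation of Wfs1-KO replicate 2 or as head-to-head pairs were chosen after their values were seen. Gene types, starts and overlaps came from GENCODE M21. Promoter windows came from RefSeq.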

Additional observations from a re-analysis of the deposited data

How the results depend on the processing

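No gene of the segment passed the adjusted threshold under any of the 15 alternatives with edgeR, DESeq2 or limma, and the median log2 fold change of all of them moved by less than its spread between retinas. Genes higher at an unadjusted p under 0.05, 1 on all retinas, numbered 0 with limma-voom, 2 with limma-voom and sample quality weights, 0 with DESeq2 without Wfs1-KO replicate 2 and 0 to 1 when any retina was left out. Those lower, 3 on all retinas, numbered 5 with quality weights, 5 with DESeq2 without Wfs1-KO replicate 2, 0 within 2.5 Mb of Wfs1 and 1 to 5 when any retina was left out. For these p-values the share over all genes was worked out only for edgeR and DESeq2, on all retinas and without Wfs1-KO replicate 2. Under the other settings the counts therefore cannot be set against all genes. Genes without overlap, 12 on all retinas, numbered 7 within 2.5 Mb. There 20 genes within 1 Mb and 39 at 1 to 2.5 Mb were tested, fewer than the 100 in all. With a retina left out, genes without overlap numbered 14 to 27 (27 without Wfs1-KO replicate 2), where fewer retinas make non-overlap easier. Among these omissions, the share over all genes was worked out only for Wfs1-KO replicate 2. Same-numbered WT and Wfs1-KO retinas come from different mice and did not deviate together (correlations -0.23, -0.11 and 0.08), and the fit with the replicate number as a block gave 0 genes higher and 1 lower at an unadjusted p under 0.05 and changed no adjusted call.

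Wfs1 passed the threshold with DESeq2 (log2 fold change -3.17, adjusted p = 0.00403), with limma and quality weights (-2.75, adjusted p = 0.000262) and with DESeq2 without Wfs1-KO replicate 2 (-2.64), and ranged from -3.61 to -2.64 when any retina was left out. With a retina left out, the medians ranged from -0.057 to 0.027 for signalling, -0.20 to -0.028 for transcription, -0.032 to 0.033 for cytoskeleton, -0.050 to 0.061 for membrane traffic, -0.12 to 0.039 for mitochondria, -0.038 to 0.14 for the cilium, -0.23 to -0.098 for RNA processing, 0.0019 to 0.13 within 1 Mb, -0.059 to 0.030 at 1 to 2.5 Mb and -0.078 to 0.0024 beyond 2.5 Mb. With DESeq2 without Wfs1-KO replicate 2 the medians were -0.051 for transcription, -0.033 for cytoskeleton, 0.060 for membrane traffic and -0.060 at 1 to 2.5 Mb. With quality weights they were -0.043 for cytoskeleton, 0.042 for membrane traffic and 0.0027 beyond 2.5 Mb, and with limma-voom -0.00073 for mitochondria and -0.10 beyond 2.5 Mb. The cause of these shifts was not tested.

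Of 478 values of the 32 named genes under the alternatives, 59 changed sign, in 18 genes, 9 of them without Wfs1-KO replicate 2, and 0 passed the adjusted threshold. Low counts limit the genes near the floor, such as Gm26647 and Otop1. The smallest difference that 3 retinas a genotype could show was not worked out. With edgeR on all retinas the adjusted test did not call Wfs1 itself.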
